A study of Mus musculus with 50 samples.

Results

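Nrxn2 and Nrxn3 encode presynaptic neurexins, and Nlgn1, Nlgn2 and Nlgn3 encode the postsynaptic neuroligins that bind them. These 5 genes were taken as a list of names, matched to Ensembl gene identifiers through GENCODE vM21, and all 5 were among the 16330 protein-coding genes tested. Other family members are not described here. Messenger RNA of the frontal cortex was sequenced to ask how heterozygous loss of Setd1a, a histone H3 methyltransferase gene, alters expression at several stages of development. The 10 groups were wild-type (WT) and Setd1a+/- mice at E14, E18, P7, P35 and P70, with 5 mice in each and 50 libraries in all. These ages follow the labels, and the methods of the study give E14.5 and E18.5 for the embryos. The labels give the strain C57BL/6NTac for every library, whereas the methods give a mixed C57BL/6NTac and C57BL/6J background. Setd1a+/- mice inherited the tm1d loss-of-function allele from the father, and the mice studied are given as male. Frontal brain regions were dissected from embryos and frontal cortex from postnatal mice, so the tissue taken before and after birth cannot be told apart from age.

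Neurexins sit on the axon terminal and reach across the synaptic cleft to neuroligins, LRRTM proteins, cerebellins and other ligands. Each neurexin gene makes long α and short β proteins from separate promoters, and heavy alternative splicing tunes which partner is bound. Neuroligin-1 is known mainly from excitatory synapses, neuroligin-2 from inhibitory synapses, and neuroligin-3 from both. Counts per gene, as used here, do not separate α from β transcripts or splice forms.

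The total count ranged from 35507165 to 43907318 fragments per library. Its median was 38621490 for the WT libraries and 38680536 for the Setd1a+/- ones. Counts of the members ranged from 840 (Nlgn1) to 37350 (Nrxn2) in a library. Counting error and the spread between mice were not separated. WT replicate 5 at E14 held 60159 counts of Xist, WT replicate 2 at E18 held 55644, and neither held more than 11 counts of 4 Y-linked genes together. In each of the remaining 48 the Xist count was 27 or lower and the Y-linked sum 4711 or higher, so these 2 libraries went against the male sex given in the methods. A further library, WT replicate 2 at P7, stood apart by its markers of tissue. Its 5 markers of brain outside the forebrain (En1, En2, Hoxa5, Hoxb4 and Hoxb5) summed to 68.8 CPM (counts scaled to library size), where the remaining 9 P7 libraries held 0.111 to 0.574 CPM. Its 4 choroid plexus markers summed to 612.1 CPM, against a median of 2.17 CPM over the 10 libraries of that age. These choroid plexus markers also varied before birth. They summed to 230.6 and 191.3 CPM in WT replicates 3 and 4 at E18, where the other 8 libraries held 1.495 to 8.74 CPM, and to 0.382 to 462.4 CPM over the E14 libraries. Levels are given as RPKM, CPM after TMM scaling, divided by the length of exon in kilobases. The labelled cortex held its defining markers, but their sum was lower in WT replicate 2 at P7. It was 382.6 CPM there, against 809.1 to 943.8 CPM in the remaining 9 P7 libraries. Cortical markers passed the filter on low counts, with means of 67.1 (Tbr1) and 168.3 RPKM (Neurod6) at E14 and 28.1 and 34.8 RPKM at P70, whereas 1 of the 5 markers outside the forebrain (En2) did so. The 6 striatal markers summed to 94.6 ± 15.8 CPM (SD, n = 10) at E14, 781 ± 220 CPM at P35 and 797 ± 297 CPM at P70. Single libraries at P70 ranged from 307.5 to 1248 CPM. The 7 cortical markers summed to 2174 ± 144, 573 ± 29.2 and 583 ± 43.2 CPM at these 3 ages. The mean striatal sum was thus above the cortical one at P35 and P70. Sums over different genes do not give shares of tissue.

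Setd1a itself (ENSMUSG00000042308, chromosome 7, 127776670 to 127800122 of GRCm38) was read first as a check of the labels. At E14 it stood at 18.99, 19.1, 20.1, 17.5 and 17.5 RPKM in WT replicates 1 to 5 and at 22.1, 20.1, 18.8, 20.6 and 19.1 RPKM in Setd1a+/- replicates 1 to 5. At E18 the values were 13.8, 14.1, 13.9, 12.6 and 14.7 RPKM in WT and 15.3, 17.2, 14.3, 15.3 and 16.7 RPKM in Setd1a+/- libraries. The P7 values were 10.7, 11.2, 10.3, 10.4 and 10.5 RPKM in WT and 12.1, 11.5, 11.2, 12.3 and 12.3 RPKM in Setd1a+/- libraries. Thus the gene count was not lower in Setd1a+/- libraries at these 3 ages. At P35 it was 13.5, 12.1, 12.0, 12.5 and 12.5 RPKM in WT and 13.5, 12.97, 13, 13.2 and 13.5 RPKM in Setd1a+/- libraries. At P70 it was 12.4, 13.1, 12.5, 12.0 and 13.5 RPKM in WT and 12.1, 12.7, 12.0, 11.3 and 14.4 RPKM in Setd1a+/- libraries. The gene count therefore does not check the deletion, which removes part of the gene. The paper refers to earlier work for a loss of Setd1a protein in the cortex of heterozygous mice, and protein was not examined here. The annotated gene Gm49388 covers 51.9% of the exonic Setd1a bases, and a fragment on shared bases was counted for both genes. Fitted by edgeR with age as a covariate, Setd1a was higher in Setd1a+/- by 0.10 on the log2 scale (standard error 0.03, adjusted p = 0.00675), and 2 of the 25 Setd1a+/- libraries lay below the lowest WT library of their age.

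The presynaptic members were Nrxn2 (ENSMUSG00000033768, chromosome 19, 6418731 to 6544169, 13812 bases of exon) and Nrxn3 (ENSMUSG00000066392, chromosome 12, 88722876 to 90334935, 12680 bases of exon). The postsynaptic members were Nlgn1 (ENSMUSG00000063887, chromosome 3, 25426215 to 26332460, 13422 bases), Nlgn2 (ENSMUSG00000051790, chromosome 11, 69823122 to 69837784, 5785 bases) and the X-linked Nlgn3 (ENSMUSG00000031302, 101299168 to 101325963, 9271 bases). Nlgn3 shares 41.2% of its exonic bases with Gm21986, a gene annotated on the same strand, so fragments there were counted for both. For Nlgn1, Nrxn2 and Nrxn3 the shared part was 9.16%, 6.44% and 3.46%, and for Nlgn2 it was 0. No exonic base was shared between members.

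RefSeq promoters (GRCm38.p6, 250 bases before to 50 bases after a transcript start) were matched for 3 of the 5 members, with 6 promoters in all. The 4 printed here belong to the neuroligin with the smallest change over age (Nlgn2) and to the neurexin and neuroligin with larger changes (Nrxn3 and Nlgn1), and they show how far the promoters of the family differ in CG pairs. Capitals mark each CG, a motif that reads the same on both strands. The promoter of Nlgn2 (chr11:69837735-69838034, minus strand) held 26 CG pairs, and 16.9% of all 32851 RefSeq promoters of this length held as many or more. The median over all promoters was 7. Of the 2 Nlgn1 promoters, the printed one (chr3:26331860-26332159, minus strand) held 14, reached by 36.3% of promoters. Of the 3 Nrxn3 promoters, the one at chr12:88794254-88794553 (plus strand) held 2, reached by 85.9%, and the one at chr12:89812233-89812532 (plus strand) held 16, reached by 33% of promoters. The other promoter of each of these 2 genes, not printed, held 6, reached by 56.4%.
Nlgn2 promoter: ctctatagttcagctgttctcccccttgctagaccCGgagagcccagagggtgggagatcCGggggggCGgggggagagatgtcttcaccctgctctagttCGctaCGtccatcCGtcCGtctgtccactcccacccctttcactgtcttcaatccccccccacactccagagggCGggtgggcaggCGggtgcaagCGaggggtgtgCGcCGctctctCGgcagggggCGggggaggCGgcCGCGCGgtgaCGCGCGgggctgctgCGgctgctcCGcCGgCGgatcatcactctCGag
Nlgn1 promoter: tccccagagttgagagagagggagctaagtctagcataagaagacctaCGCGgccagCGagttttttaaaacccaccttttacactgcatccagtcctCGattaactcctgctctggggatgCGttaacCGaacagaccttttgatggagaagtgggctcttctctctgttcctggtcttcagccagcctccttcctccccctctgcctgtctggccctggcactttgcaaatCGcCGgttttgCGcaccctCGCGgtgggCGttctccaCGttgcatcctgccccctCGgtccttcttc
Nrxn3 promoter with 2 CG pairs: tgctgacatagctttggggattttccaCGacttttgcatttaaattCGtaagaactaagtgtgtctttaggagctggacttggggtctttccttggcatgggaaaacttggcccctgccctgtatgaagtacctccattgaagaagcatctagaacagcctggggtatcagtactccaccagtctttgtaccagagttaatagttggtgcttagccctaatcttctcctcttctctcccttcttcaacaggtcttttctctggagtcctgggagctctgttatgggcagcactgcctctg
Nrxn3 promoter with 16 CG pairs: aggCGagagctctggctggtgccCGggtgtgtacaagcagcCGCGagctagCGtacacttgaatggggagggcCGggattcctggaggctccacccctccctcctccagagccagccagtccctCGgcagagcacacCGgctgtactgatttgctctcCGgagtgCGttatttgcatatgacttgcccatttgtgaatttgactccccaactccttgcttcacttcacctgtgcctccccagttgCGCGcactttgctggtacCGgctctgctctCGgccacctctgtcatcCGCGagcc

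All 5 genes were expressed at every age, and their levels per length fell into a fixed order over most of development. At E14, E18 and P7 the order in both genotypes was Nlgn2, Nrxn2, Nlgn3, Nrxn3 and Nlgn1, from high to low, and every library followed it. At P35 and P70 Nrxn3 stood above Nlgn3 in every library, with the rest of the order as before. Neighbours in the order did not overlap in any group, except Nlgn2 and Nrxn2 in WT libraries at P7. At E14 the WT means were 68.8 ± 13.1 RPKM (SD, n = 5) for Nlgn2, 24.6 ± 6.67 for Nrxn2, 12.0 ± 1.99 for Nlgn3, 6.66 ± 1.73 for Nrxn3 and 2.11 ± 0.41 for Nlgn1. At P70 they were 66.1 ± 1.70 RPKM for Nlgn2, 44.6 ± 2.84 for Nrxn2, 19.1 ± 0.51 for Nrxn3, 13.99 ± 0.72 for Nlgn3 and 5.30 ± 0.32 for Nlgn1. Nlgn2 was thus the highest of the neuroligins at both ends of the series, and Nlgn1 the lowest of the 5 genes.

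**Figure D1:**
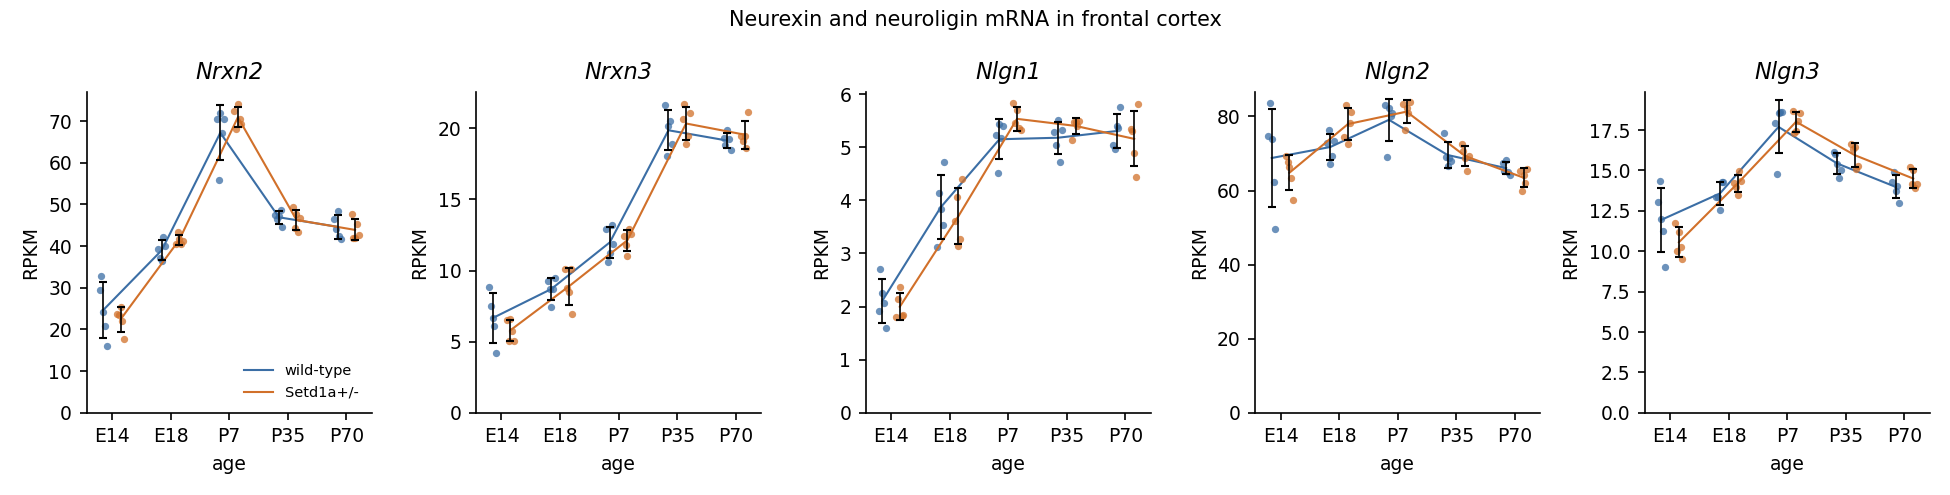
Level of each gene in RPKM (vertical axis) at the 5 ages (horizontal axis), with 1 point per library, colour for genotype, and the mean and SD of 5 libraries per group. Nrxn2 peaks at P7 (mean of 10 libraries 69.1 RPKM), Nrxn3 is highest at P35 and P70, and the genotypes overlap at every age.

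Nrxn2 climbed to a peak at P7 and then came down. Over the 10 libraries of each age, its lowest, median and highest levels were 16.1, 23.6 and 32.8 RPKM at E14, 36.4, 40.6 and 43.5 RPKM at E18, and 55.9, 70.5 and 74.1 RPKM at P7. They were 43.4, 46.9 and 49.4 RPKM at P35 and 41.7, 43.4 and 48.5 RPKM at P70. No library at one age overlapped the next age in the first 3 steps, whereas P35 and P70 overlapped. Nrxn2 rose from E14 to E18 (edgeR log2 fold change 0.77, standard error 0.07, adjusted p = 2.20e-13) and again from E18 to P7 (0.78, standard error 0.07, adjusted p = 1.43e-13). It fell from P7 to P35 (−0.57, standard error 0.07, adjusted p = 9.36e-10). Its mean at P7 was 2.93 times that at E14, and its mean at P70 was 64.1% of that at P7.

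Nrxn3 followed another course, with its largest single step from P7 to P35. Its lowest, median and highest levels were 4.18, 6.32 and 8.85 RPKM at E14, 6.97, 8.74 and 10.1 RPKM at E18, and 10.6, 12.1 and 13.2 RPKM at P7. They reached 18.04, 20.4 and 21.7 RPKM at P35 and stood at 18.5, 19.3 and 21.2 RPKM at P70. Every P35 library lay above every P7 library. Nrxn3 rose in the first 3 steps, by log2 fold changes of 0.50, 0.46 and 0.74 (standard error 0.08 for each, adjusted p = 1.20e-07, 7.03e-07 and 5.80e-12, edgeR). From P7 to P35, then, the neurexin genes went in opposite directions. The ratio of Nrxn2 to Nrxn3 RPKM had a mean of 5.75 ± 0.51 (SD, n = 10) at P7 and 2.33 ± 0.16 at P35. Single libraries ran from 5.09 to 6.73 at P7 and from 2.05 to 2.58 at P35, without overlap. The ratio had been 3.80 ± 0.43 at E14 and 4.64 ± 0.59 at E18, and it was 2.29 ± 0.15 at P70.

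Among the neuroligins, Nlgn1, the member tied to excitatory synapses, changed most. Its lowest, median and highest levels were 1.59, 2.00 and 2.70 RPKM at E14, 3.13, 3.73 and 4.72 RPKM at E18, and 4.51, 5.38 and 5.83 RPKM at P7. At P35 they were 4.73, 5.36 and 5.52 RPKM, and at P70 4.44, 5.32 and 5.82 RPKM. Every E18 library lay above every E14 library, and later neighbouring ages overlapped. Nlgn1 rose from E14 to E18 (edgeR log2 fold change 0.88, standard error 0.07, adjusted p = 3.74e-15) and from E18 to P7 (0.50, standard error 0.07, adjusted p = 1.73e-08). From P7 to P35 its log2 fold change was −0.01 (95% interval −0.15 to 0.13, adjusted p = 0.864).

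Nlgn2, the neuroligin of inhibitory synapses, changed least. Its lowest, median and highest levels were 49.6, 67.0 and 83.6 RPKM at E14, 67.1, 74.0 and 83.2 RPKM at E18, and 69.1, 81.6 and 83.8 RPKM at P7. They were 65.3, 68.97 and 75.4 RPKM at P35 and 59.8, 65.2 and 68.3 RPKM at P70. Neighbouring ages overlapped at every step, and the highest age mean was 1.24 times the lowest. Nlgn2 rose from E14 to E18 (edgeR log2 fold change 0.16, standard error 0.05, adjusted p = 0.00405) and fell from P7 to P35 (−0.21, standard error 0.05, adjusted p = 0.000349). In WT libraries alone the latter was −0.18 (adjusted p = 0.0759). From E18 to P7 its log2 fold change was 0.10 (95% interval −0.0024 to 0.20, adjusted p = 0.0712), which became 0.12 without WT replicate 2 at P7 (adjusted p = 0.0365) and 0.14 with DESeq2, and was called under both. In WT libraries alone the E14 to E18 fold change was 0.06 (adjusted p = 0.582) and in Setd1a+/- libraries alone 0.27, which was called, and that difference was tested only through the interaction of age and genotype given further on.

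Nlgn3, found at both kinds of synapse, peaked at P7, which was also the age of the highest mean for Nrxn2, Nlgn1 and Nlgn2. Its lowest, median and highest levels were 9.06, 11.2 and 14.4 RPKM at E14, 12.6, 14.1 and 14.95 RPKM at E18, and 14.8, 18.3 and 18.7 RPKM at P7. They were 14.5, 15.7 and 16.6 RPKM at P35 and 12.97, 14.2 and 15.2 RPKM at P70. Ranges of neighbouring ages overlapped at all 4 steps. Nlgn3 rose from E14 to E18 (edgeR log2 fold change 0.31, standard error 0.05, adjusted p = 4.51e-07) and from E18 to P7 (0.36, standard error 0.05, adjusted p = 9.77e-09), and fell from P7 to P35 (−0.19, standard error 0.05, adjusted p = 0.000768). In WT libraries alone the first of these steps was 0.18 (adjusted p = 0.0631).

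**Figure D2:**
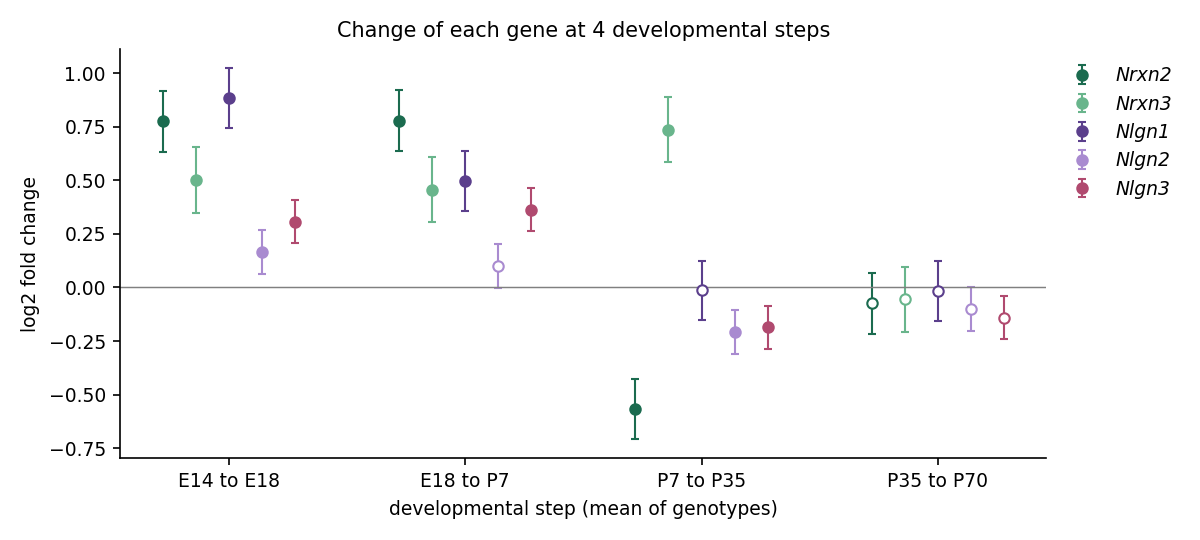
Log2 fold change of each gene (vertical axis) at the 4 age steps (horizontal axis), mean of both genotypes, with 95% intervals from edgeR; filled points passed an adjusted p of 0.05. From P7 to P35 Nrxn3 is at 0.74 and Nrxn2 at −0.57.

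Since the neuroligins changed by unequal amounts, their shares of the summed neuroligin RPKM shifted. Over the 5 ages, in order, Nlgn2 held 83.4 ± 0.73, 80.9 ± 0.88, 77.6 ± 0.46, 76.8 ± 0.75 and 76.9 ± 0.80% (SD, n = 10). Its ranges did not overlap between E14 and E18 (82.3 to 84.7% against 79.5 to 82.2%) or between E18 and P7 (up to 78.2%). Nlgn1 held 2.57 ± 0.26% at E14, 5.17 ± 0.21% at P7 and 6.21 ± 0.48% at P70. The share of Nlgn3 was 14.1 ± 0.71% at E14, 17.3 ± 0.43% at P7 and 16.9 ± 0.85% at P70. These shares depend on the division by gene length and were lower for Nlgn2 at each age without it. They are descriptions and were not tested.

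**Figure D3:**
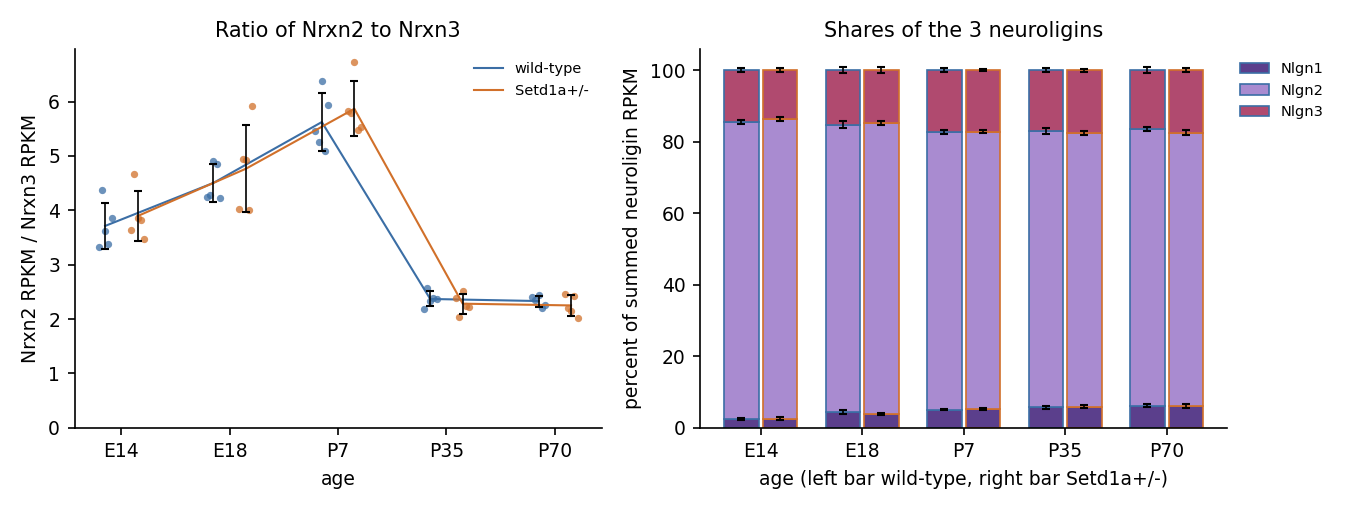
Left, ratio of Nrxn2 to Nrxn3 RPKM (vertical axis) at the 5 ages (horizontal axis), with 1 point per library and the mean and SD of 5 libraries per genotype. Right, mean share of each neuroligin in the summed neuroligin RPKM, in percent, as stacked bars with SD (left bar WT, right bar Setd1a+/-), where the share of Nlgn2 over 10 libraries goes from 83.4% at E14 to 76.9% at P70.

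Change with age was the rule across the transcriptome, and the members' calls stand against that background. The joint test of the 4 age terms called 5 of 5 members, as it did 97.4% of all genes. From E14 to E18 all 5 members rose, against 36% of genes called higher and 37.4% called lower, and their median log2 fold change was 0.50, against −0.0025 over all genes. From E18 to P7, 4 of 5 rose, against 37.9% called higher and 38.2% lower, with a median of 0.46 against 0.00017. From P7 to P35, 1 rose and 3 fell, against 37.98% and 38.13% of all genes called higher and lower. From P35 to P70 edgeR called 0 members, with 5.003% of genes called higher and 4.74% lower. In that step 1 member (Nlgn3, log2 fold change −0.14, adjusted p = 0.0608) had an unadjusted p under 0.05, limma-voom called 0 and DESeq2 called 1, the same gene (−0.14, adjusted p = 0.0493).

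Markers of cell types moved over the same ages, and in bulk tissue fewer cells of a type and less RNA per cell cannot be told apart. The 5 neuronal markers (Snap25, Syt1, Rbfox3, Tubb3 and Stmn2) all rose from E14 to E18, and their sum over the 5 ages, in order, was 2039 ± 246, 3301 ± 231, 4683 ± 506, 4663 ± 161.7 and 4924 ± 219 CPM (SD, n = 10). Tubb3 was the most abundant at E14 and Snap25 at P70. Between P7 and P35, where the sum changed little, 3 rose and 2 fell, with log2 fold changes from −2.21 (Stmn2) to 2.08 (Snap25). The 5 progenitor markers all fell in the first step, from a sum of 909 ± 113 CPM to 329 ± 40.4 CPM, and stood at 86.6 CPM at P70. Oligodendrocyte markers summed to 349.6 ± 399 CPM at P7, where WT replicate 2 held 1483.9 CPM and the other 9 libraries 201.8 to 261.8 CPM, and to 5664 ± 502 CPM at P35 (Mbp most abundant), and astrocyte markers to 1696 ± 171 and 4190 ± 121 CPM (Slc1a2 most abundant). The 6 striatal markers, which all rose from P7 to P35 (median log2 fold change 2.13), summed to 182.0 ± 99.4 and 780.8 ± 220.0 CPM at these ages. The inhibitory neuron markers summed to 1009 ± 188 CPM at E14, 591 ± 73.5 at P7 and 1031 ± 101 at P70, but the single markers went different ways. Between P7 and P35, 5 rose and 2 fell. Over the series Dlx2 went from a mean of 59.95 RPKM at E14 to 3.18 RPKM at P70, and Pvalb from 0.022 to 31.1 RPKM. The part of the markers in the changes of neurexin and neuroligin RNA was not tested.

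Most genes of other neurexin ligands also rose before birth. Of 19 such genes, 16 rose, 1 fell and 2 were not called from E14 to E18, with a median log2 fold change of 0.99. C1ql3, a secreted C1q-like synaptic protein, rose by 2.38 in this step (adjusted p = 4.35e-15, edgeR), and the exception was the neurexophilin gene Nxph4, which fell by 0.85 (adjusted p = 4.40e-05). From E18 to P7, 11 rose and 3 fell (Nxph4, and Adgrl2 and Cbln2, named after their values were seen). From P7 to P35, 6 rose and 8 fell. Of all genes, 36% were called higher and 37.4% lower from E14 to E18, and 37.9% and 38.2% from E18 to P7. From P7 to P35 these shares were 37.98% and 38.13%, not far from the counts of this list. The same shares apply to the lists that follow. Igsf21, an adhesion protein of inhibitory synapses that binds neurexin-2, rose by log2 fold changes of 1.11 and 1.02 in the first 2 steps and fell from P7 to P35 (−0.49, adjusted p = 9.60e-10), a course of the same signs as that of Nrxn2. The mean levels of Igsf21 were 14.8, 32.0, 64.7, 46.1 and 44.1 RPKM from E14 to P70.

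Inside the terminal, neurexins bind PDZ proteins. Of 7 such genes 6 rose from E14 to E18, and 5 rose and 1 fell (Lin7c, −0.12) from E18 to P7. From P7 to P35, 2 rose (Lin7b and Lin7a) and 4 fell. The paralogues Lin7b and Lin7c, adaptors in the complex with CASK, crossed over. Lin7b went from a mean of 3.04 RPKM at E14 to 46.4 RPKM at P70, and Lin7c from 40.3 to 16.3 RPKM. Lin7b rose by 2.59 on the log2 scale from E18 to P7 (adjusted p = 1.39e-26, edgeR), and Lin7c fell by 1.63 from P7 to P35 (adjusted p = 6.02e-36). Lin7a was named after its values were seen.

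On the postsynaptic side, in each of the first 3 steps most scaffolds of excitatory synapses rose. Of 11 scaffold genes 9 rose from E14 to E18, 9 from E18 to P7 and 8 from P7 to P35, with median log2 fold changes of 0.39, 0.46 and 0.43. Dlgap1, which links PSD-95 to Shank proteins, rose by 1.91, 0.28 and 1.53 in these steps (adjusted p = 2.05e-22, 0.00324 and 3.85e-20, edgeR). The genes that fell were Magi1 in the first step and the second (−0.31 and −0.12) and Dlg1 in the first (−0.56, named after its values were seen). From P35 to P70 Homer1, also named after its values were seen, rose by 0.58. Partners of neuroligin-2 at inhibitory synapses rose 5 of 5 from E14 to E18 and 5 of 5 from E18 to P7. Gphn, which encodes the scaffold gephyrin, rose by 0.41 and 0.48 in these steps, and Iqsec3, a gephyrin-binding exchange factor, by 0.70 and 0.57, then by 1.05 from P7 to P35. Lhfpl4, which joins neuroligin-2 to GABA receptors, resembled Nlgn2 in that it changed little, with mean levels of 25.0 RPKM at E14, 32.5 at P7 and 27.4 at P70. It rose by 0.18 and 0.20 and fell from P7 to P35 (−0.11, adjusted p = 0.0409).

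Genes that act on neuroligins or neurexins from outside or in the nucleus differed among themselves. Of 4 extracellular partners of neuroligins, Sparcl1, the astrocyte-secreted protein hevin, rose in the first 3 steps, by 1.92, 1.35 and 0.70 on the log2 scale, to a mean of 452.1 RPKM at P70. Thbs1, a thrombospondin, fell from E18 to P7 (−1.14) and from P7 to P35 (−1.75). Mdga2 and Mdga1, whose proteins cover neuroligins and block neurexin binding, were named after their values were seen. Mdga2 rose by 1.06 and 0.35 and then fell (−0.28), and Mdga1 fell in the first step (−0.33) and from P7 to P35 (−1.91). Of the 3 genes of the KHDRBS family, RNA-binding proteins that direct neurexin splicing, Khdrbs1 fell in the first 3 steps (−0.50, −0.84 and −0.43), as did Khdrbs2, named after its values were seen, while Khdrbs3 rose from E14 to E18 (0.75), fell from E18 to P7 (−0.32) and rose from P35 to P70 (0.24). The proteases that shed neuroligins, Mmp9 and Adam10, both fell from E18 to P7 (−1.97 and −0.10) and from P7 to P35 (−1.18 and −0.32), and Mmp9 had also fallen from E14 to E18 (−0.36). Of 24 other synaptogenic adhesion genes 16 rose and 4 fell in the first step (Ptprs, −0.77, and Ptprf, Flrt1 and Flrt3, named after their values were seen), and 15 rose and 3 fell in the second. Of all genes, 36% were called higher and 37.4% lower in the first step, and 37.9% and 38.2% in the second. From P7 to P35, 8 of the adhesion genes rose and 10 fell. These counts lay near the 37.98% and 38.13% of all genes called higher and lower in that step. Cadm2, a SynCAM adhesion gene, rose by 1.72 and 1.18 in the first 2 steps, and Ptprs, a presynaptic receptor phosphatase, fell in the first 3.

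The genes most like each member were found by the Pearson correlation of log2 CPM over all 50 libraries, which share 5 ages, so that the age course dominates each coefficient. Nrxn2 was most like Ywhag, a 14-3-3 gene (r = 0.992), Apba1, an adaptor that binds neurexins (0.987), and Camk2n2, an inhibitor of CaM kinase II (0.984). For Nrxn3 the list was Unc80, a subunit of the NALCN channel (0.984), the scaffold gene Dlgap2 (0.983) and Synj1, which encodes synaptojanin (0.983). For Nlgn1 it was Camk2b (0.978), Camkv (0.977) and the scaffold gene Dlg2 (0.977), all of them genes known from excitatory synapses. Nlgn2 had lower coefficients, with Sobp (0.897), Cadm4 (0.884) and Trim46 (0.880), and Nlgn3 was most like Neurl1b (0.958), the calcium channel gene Cacna1b (0.954) and Nrxn2 itself (0.949). Within single ages the coefficients varied, for example from −0.33 to 0.93 for Nlgn1 with Dlg2.

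No member passed the test of genotype. At E18, P7, P35 and P70 the Setd1a+/- means were 41.5 ± 1.20, 70.9 ± 2.40, 46.3 ± 2.45 and 43.9 ± 2.53 RPKM (SD, n = 5) for Nrxn2, against WT means of 39.02 ± 2.36, 67.2 ± 6.57, 46.9 ± 1.502 and 44.6 ± 2.84 RPKM. The ranges of the genotypes overlapped for each of the 5 members at each of the 5 ages. With age as a covariate edgeR called 0 of 5 members, and 0 of 5 had an unadjusted p under 0.05, against 4.43% of all genes called (111 higher and 612 lower) and 2361 genes at an unadjusted p under 0.05. DESeq2 and limma-voom called 0 of 5 as well. The log2 fold changes were −0.0016 for Nrxn2 (95% interval −0.09 to 0.087), −0.017 for Nrxn3 (−0.11 to 0.079), −0.0027 for Nlgn1 (−0.09 to 0.084), 0.0018 for Nlgn2 (−0.064 to 0.068) and 0.0023 for Nlgn3 (−0.063 to 0.068), with adjusted p from 0.933 to 0.994. The intervals bound the mean difference over the 5 ages to about a log2 of 0.11 or less. They do not show that the levels are the same.

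**Figure D4:**
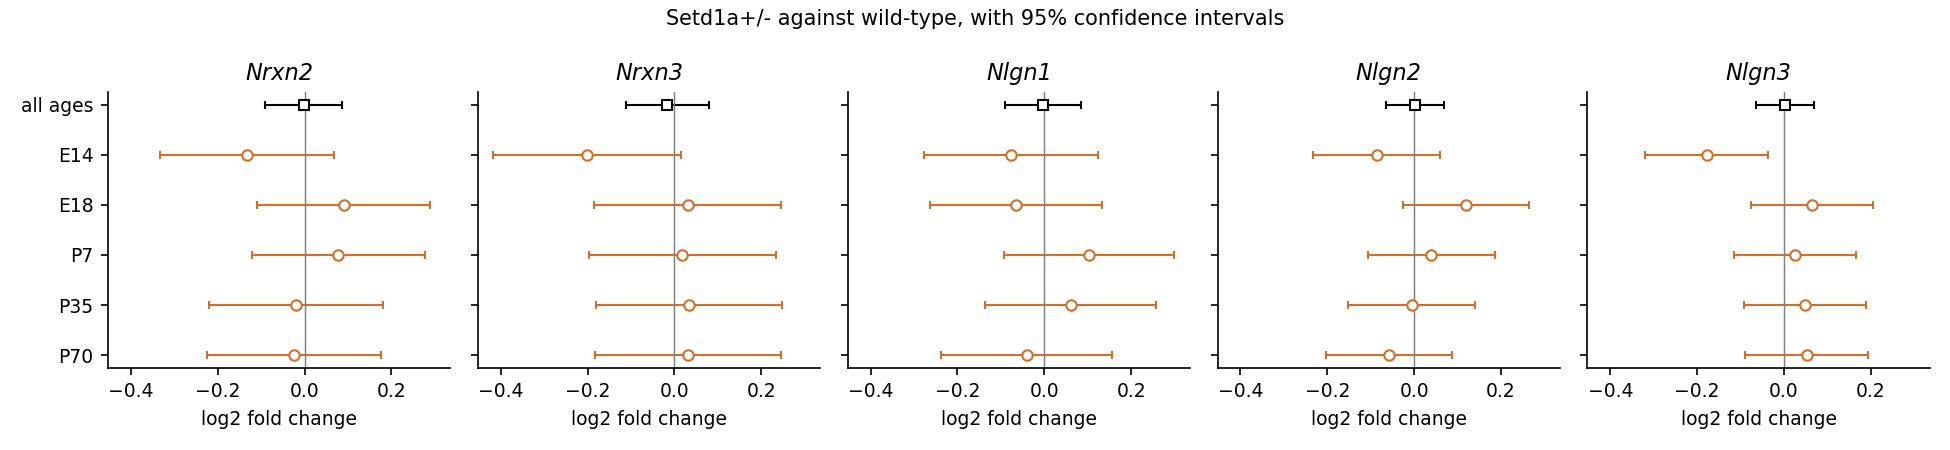
Log2 fold change of Setd1a+/- against WT (horizontal axis) for each gene, over all ages with age as a covariate (square) and at each age (circles), with 95% intervals from edgeR. All 5 genes lie below 0 at E14, from −0.20 to −0.08, and no adjusted p is under 0.05.

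The interaction test asked whether the difference between genotypes itself changed with age. In edgeR 0 genes were called, a share of 0%, and 1098 genes had an unadjusted p under 0.05, among them 0 of the 5 members. DESeq2 called 21 genes and limma-voom 0, and neither called a member. In edgeR 12 genes were called without the libraries with Xist counts and 0 to 5 on leaving out 1 library (5 without WT replicate 5 at E14), with no member among them. The smallest unadjusted p of a member was 0.0938 for Nlgn3 (adjusted p = 0.85), followed by 0.296 for Nlgn2.

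E14 was the age with the lowest Setd1a+/- values of the members relative to WT. Of all 16330 genes 6307 had a log2 fold change above 0 at this age (median −0.03), as did 0 of the 5 members. The same held for 0 of the 24 other adhesion genes, 0 of the 7 PDZ partners and 0 of the 5 inhibitory partners. It also held for 1 of the 11 scaffolds and 4 of the 19 other neurexin ligands. In the remaining lists 3 of the 4 extracellular neuroligin partners, 1 of the 2 sheddases and 1 of the 3 splicing regulators lay above 0. General neuronal markers shared the low side, with 0 of 5 above 0 (median −0.08), and so did inhibitory neuron markers, with 1 of 7 (median −0.17). Of the excitatory neuron markers 1 of 2 lay above 0, of the progenitor markers 4 of 5 and of the cortical markers 5 of 7. The signs differed at other ages. At E18 4 of 5 members, 17 of 24 other adhesion genes and 9 of 11 scaffolds lay above 0, against 9099 of all genes. At P7 these counts were 5 of 5, 23 of 24 and 10 of 11, against 7910 of all genes. The PDZ partners gave 6 of 7 at E18 and 5 of 7 at P7, and the inhibitory partners 4 of 5 and 2 of 5. No gene of these lists was called at E14. There Nlgn3 stood at 13.1, 14.4, 12.0, 11.3 and 9.06 RPKM in WT replicates 1 to 5 and at 11.8, 10.04, 11.2, 10.3 and 9.51 RPKM in Setd1a+/- replicates 1 to 5. Nrxn3 stood at 8.85, 7.49, 6.66, 6.13 and 4.18 RPKM in WT and at 6.51, 5.04, 6.60, 5.75 and 5.08 RPKM in Setd1a+/- libraries. For both genes 3 WT libraries lay above every Setd1a+/- library and 1 WT library, replicate 5, below every one of them. Nrxn2 stood at 29.5, 32.8, 24.1, 20.7 and 16.1 RPKM in WT and at 23.7, 23.5, 25.5, 21.9 and 17.7 RPKM in Setd1a+/- libraries, with 2 WT libraries above every Setd1a+/- library and replicate 5 below. Nlgn2 stood at 74.6, 83.6, 73.9, 62.4 and 49.6 RPKM in WT and at 69.3, 67.7, 66.4, 63.3 and 57.4 RPKM in Setd1a+/- libraries. Nlgn1 stood at 1.93, 2.70, 2.25, 2.07 and 1.59 RPKM in WT and at 1.80, 2.15, 2.37, 1.82 and 1.85 RPKM in Setd1a+/- libraries. WT replicate 5, one of the libraries with Xist counts, was thus the lowest of its group in all 5 genes. With it, edgeR called 0 of 5 members at E14, against 0.129% of all genes (21), and 1 member had an unadjusted p under 0.05. That member was Nlgn3 (log2 fold change −0.18, standard error 0.07, adjusted p = 0.24), and Nrxn3 came next (−0.20, standard error 0.11, adjusted p = 0.49). DESeq2 and limma-voom called 0 of 5.

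Without WT replicate 5, 2 of 5 members were called lower at E14, against 2.22% of all genes (362). These were Nrxn3 (edgeR log2 fold change −0.33, adjusted p = 0.0343) and Nlgn3 (−0.26, adjusted p = 0.0176). Nrxn2 (−0.25, adjusted p = 0.0675), Nlgn2 (−0.18, adjusted p = 0.0581) and Nlgn1 (−0.16, adjusted p = 0.343) were not called. The members varied together over the E14 libraries, with a Pearson r of log2 CPM from 0.52 (Nrxn3 with Nlgn1) to 0.96 (Nrxn2 with Nlgn2). For the 2 called genes it was 0.92, so their calls are not separate results. Without WT replicate 2 the value of Nlgn1 turned to 0.03. The other members also moved upward on leaving out a single library. Their highest values were −0.01 for Nrxn2, −0.01 for Nlgn2, −0.08 for Nrxn3 and −0.10 for Nlgn3. Leaving out both libraries with Xist counts gave the same calls (−0.33 and −0.27), against 2.38% of genes called lower. The number of genes called at E14 depended on single libraries in general. It was 740 without WT replicate 5, 423 without Setd1a+/- replicate 1, 400 without Setd1a+/- replicate 3 and 146 without Setd1a+/- replicate 5, against 21 with all libraries, and 1 without WT replicate 1, 5 without WT replicate 2, 7 without Setd1a+/- replicate 2, 10 without Setd1a+/- replicate 4 and 13 without WT replicate 4.

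Neuronal markers and several members had their extremes in the same E14 libraries. The sum of the 5 neuronal markers was 2389, 2460, 1972, 2068 and 1671 CPM in WT replicates 1 to 5 and 2041, 1939, 2158, 1898.5 and 1789.5 CPM in Setd1a+/- replicates 1 to 5, with Tubb3 the most abundant. The libraries with the 2 lowest sums, WT replicate 5 and Setd1a+/- replicate 5, had the 2 lowest levels of Nrxn2, Nlgn2 and Nlgn3, and WT replicates 1 and 2, with the 2 highest sums, had the 2 highest of these genes and of Nrxn3. The second lowest library was Setd1a+/- replicate 2 for Nrxn3 and Setd1a+/- replicate 1 for Nlgn1, and WT replicate 1 was the second lowest of the WT libraries for Nlgn1. Against its group mean, WT replicate 5 lay at −0.32 on the log2 scale for the neuronal markers, −0.41 for the 7 inhibitory neuron markers (Dlx1 most abundant) and 0.27 for the 5 progenitor markers, and between −0.63 (Nrxn3) and −0.38 (Nlgn1) for the members. Its 2 excitatory neuron markers lay at −0.0088 and its cortical markers at 0.057. The 4 choroid plexus markers summed to 0.382, 20.7, 384.1, 255.0 and 405.1 CPM in WT replicates 1 to 5 and to 59.95, 1.39, 182.1, 444.3 and 462.4 CPM in Setd1a+/- replicates 1 to 5. The 3 blood markers summed to 807.8 CPM in WT replicate 5 and 246.5 to 390.1 CPM in the other WT libraries, and to 198.8, 610.5, 755.1, 695.5 and 695.8 CPM in Setd1a+/- replicates 1 to 5, with a median log2 fold change of 0.53 between the genotypes and 0 of 3 at an unadjusted p under 0.05. The 4 endothelial markers were higher in Setd1a+/- libraries at E14 (median log2 fold change 0.76, 4 of 4 at an unadjusted p under 0.05 and 0 called), and Setd1a+/- replicate 2 held 516.4 CPM of them, against 101.4 to 193.5 CPM in the other 9 libraries. The part of these differences in the values of the members was not tested.

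**Figure D5:**
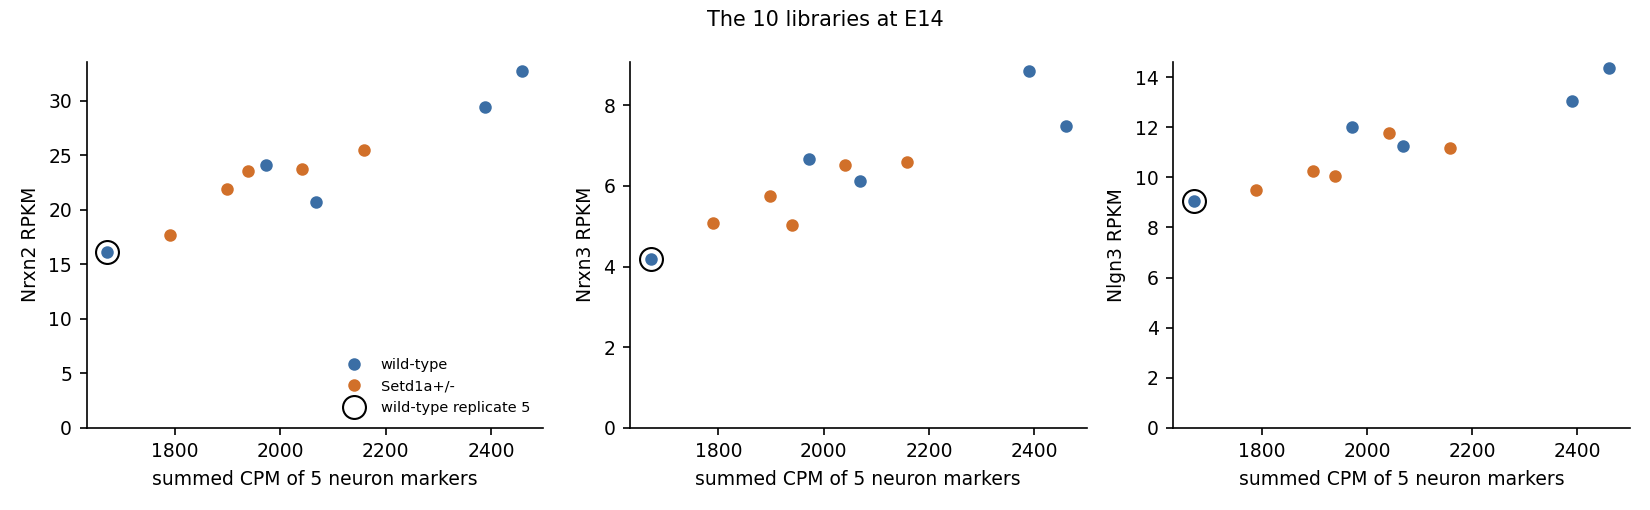
Level of Nrxn2, Nrxn3 and Nlgn3 in RPKM (vertical axes) against the summed CPM of the 5 neuronal markers (horizontal axes, not starting at 0) in the 10 E14 libraries, with colour for genotype and a ring around WT replicate 5. WT replicate 5 has the lowest marker sum (1671 CPM) and the lowest level of each gene.

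At the later ages no member was called either. At E18 edgeR called 0 of 5 members, against 0.11% of all genes (18, from 7 to 55 on leaving out 1 library of that age and 77 without the libraries with Xist counts), and 0 had an unadjusted p under 0.05. The log2 fold changes ran from −0.07 (Nlgn1) to 0.12 (Nlgn2). At P7 it called 0 of 5, against 0.735% of genes, 0 had an unadjusted p under 0.05, and the fold changes ran from 0.02 (Nrxn3) to 0.10 (Nlgn1). WT replicate 2 at P7, the library with markers from outside the forebrain, was the lowest of its group in all 5 genes, for instance at 69.1 RPKM for Nlgn2 against 80.1 to 83.1 RPKM in the other 4. Its neuronal markers summed to 3328 CPM, against 4636 to 5122 CPM in the other WT libraries at P7, and the part of that difference was not tested. Without it the fold changes of Nrxn3 and Nlgn3 at P7 were −0.02 and −0.03, and 7 genes were called in place of 120, where leaving out 1 of the other libraries of that age gave 32 to 211. At P35 edgeR called 0 of 5 members and 0 of all genes (0%, with 551 at an unadjusted p under 0.05, 0 by limma-voom and 11 by DESeq2), and at P70 0 of 5, against 0.233% of genes (38, from 8 to 101 on leaving out 1 library of that age). No member had an unadjusted p under 0.05 at these 2 ages, and DESeq2 and limma-voom called 0 of 5 members at each age from E18 on.

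The partners of neurexins and neuroligins likewise held no gene called by genotype with age as a covariate. Of the 19 other neurexin ligands edgeR called 0, with 4 at an unadjusted p under 0.05 and a median log2 fold change of −0.0063, against 0.0013 over all genes. The smallest p was that of Igsf21 (0.11, standard error 0.04, adjusted p = 0.0933). Of the 11 excitatory scaffolds 0 were called and 1 (Magi1, 0.05, adjusted p = 0.338) had an unadjusted p under 0.05, and of the 24 other adhesion genes 0 and 1 (Lrrc4c, which binds netrin-G1, 0.11, adjusted p = 0.272). Of the 2 sheddases 0 were called and 1 (Adam10, −0.04, adjusted p = 0.285) had an unadjusted p under 0.05. The 7 presynaptic PDZ partners, 4 extracellular partners, 5 inhibitory partners and 3 splicing regulators gave 0 called and 0 at an unadjusted p under 0.05, with medians of 0.01, 0.04, 0.01 and −0.0018. In these lists the smallest p belonged to Lin7b (−0.08, adjusted p = 0.581), Thbs1 (0.10, adjusted p = 0.62), Gphn (−0.03, adjusted p = 0.661) and Khdrbs3 (0.07, adjusted p = 0.54). Nor was any of the marker genes called. The medians were 0.02 for the neuronal, −0.03 for the inhibitory neuron, −0.29 for the oligodendrocyte (0 of 6 above 0) and −0.87 for the choroid plexus markers (2 of 4 at an unadjusted p under 0.05). At E18 alone the choroid plexus median was −3.88 (2 of 4 at an unadjusted p under 0.05 and 0 called), and the WT group of that age holds replicates 3 and 4. At P7 alone 6 marker genes were called lower in Setd1a+/- libraries, 3 of oligodendrocytes and 1 each of choroid plexus, inhibitory neurons and brain outside the forebrain, and the WT group of that age holds replicate 2.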

How the data were processed

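The 50 libraries hold messenger RNA of frontal cortex from 10 groups of 5 mice. The authors trimmed reads with Trimmomatic, inspected them with FastQC, aligned them by STAR to GRCm38 and used featureCounts 1.4.6-p2 for the fragments over exons of Ensembl release 102 genes, with raw counts per gene as the deposited values, without normalization. A fragment over several genes was counted for each, and no strand was used.

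Names and gene types came from GENCODE vM21, which names 55141 of the 55487 genes, 21897 of them protein-coding. Of these, 16330 passed edgeR's filterByExpr (minimum count 10). Counts were scaled by TMM and fitted by the quasi-likelihood method of edgeR 4.0.16 (R 4.3.3, limma 3.58.1), with age as a covariate of genotype, with the interaction of age and genotype, and with 10 groups for single ages and age steps. P-values were adjusted over all tested genes by the Benjamini-Hochberg method and called under 0.05. The models were tested on simulated data. Log2 CPM used a prior count of 2, and RPKM the TMM-scaled library size and the gene length of the files.

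The members, gene lists and tests were chosen with earlier results of these data known. Beside the members and Setd1a, the genes named are, from each list, those called by genotype, the one with the smallest genotype p, and those with the largest rise and fall in log2 CPM from E14 to P70, and, for each member, the 3 genes with the highest Pearson r over 50 libraries. Exceptions are marked.

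Alternatives were limma-voom, DESeq2 1.42.0, DESeq2's size factors, library size only, a 10 CPM minimum (5 or more libraries), no filter, a covariate for RNA integrity, replicate number as a block, each age fitted alone, each genotype alone, counts not divided by length, leaving out each library in turn, and leaving out the 2 libraries with over 1000 Xist counts. Proteome data were not analysed here. Python 3.11.15 and matplotlib 3.10.9 drew the figures.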

Additional observations from a re-analysis of the deposited data

Results flagged for a closer look

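In 50 groups of 5 libraries (5 genes in 10 groups each), the highest or lowest library stood far from the other 4 in 5 groups, by Dixon's 95% criterion. Chance alone marks about 1 in 20 groups. Of these, 3 concern WT replicate 2 at P7, the library with markers from outside the forebrain. It held 4.51 RPKM of Nlgn1 against 5.17 to 5.44 in the other WT libraries at P7, 69.1 RPKM of Nlgn2 against 80.1 to 83.1, and 14.8 RPKM of Nlgn3 against 17.9 to 18.6. The part of its tissue markers in these values was not tested. At P35, Setd1a+/- replicate 1 held 5.14 RPKM of Nlgn1 against 5.40 to 5.50 in the other Setd1a+/- libraries, and WT replicate 1 held 75.4 RPKM of Nlgn2 against 66.6 to 69.1 in the other WT libraries.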

How the results depend on the processing

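With age as a covariate, 0 of 5 members were called by genotype under each of 9 alternatives and on leaving out each of 50 libraries. Over the 9 alternatives the log2 fold changes ran from −0.04 to 0.01 with a lowest adjusted p of 0.795, and for Nrxn3 leaving out a library gave −0.03 to 0.01. No member was called in the interaction, where the lowest adjusted p was 0.109 over 8 alternatives and 0.134 on leaving out a library.

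At E14, 2 members were called without the libraries with Xist counts, and 0 to 2 on leaving out a library (2 without WT replicate 5). Scaled by library size only, Nrxn3 turned to −0.01 at E18 and −0.01 at P7. Leaving out single libraries turned the sign of values that were not called, with ranges of −0.16 to 0.03 for Nlgn1 at E14, −0.02 to 0.11 for Nrxn3 and −0.13 to 0.02 for Nlgn1 at E18, −0.02 to 0.06 for Nrxn3 and −0.03 to 0.04 for Nlgn3 at P7, −0.02 to 0.02 for Nlgn2 at P35, and −0.06 to 0.01 for Nrxn2 and −0.09 to 0.01 for Nlgn1 at P70. With replicate number as a block, 0 members were called with age as a covariate and at each age, but whether the numbers pair mice is not known. Of 25 same-numbered pairs 9 had an r over 0.1 (from −0.21 to 0.46), and 7 WT libraries were closest to the same number. These values cannot decide it. The methods mention littermates after birth, and litter was not modelled. Each age fitted alone and RNA integrity as a covariate also gave 0 members. Among all genes, the block at single ages called 0 at E14, E18 and P7, 3 at P35 and 1 at P70. Each age fitted alone called 0 of all genes at E14, E18, P7 and P70 and 3 at P35. With almost no gene called, these 2 fits at single ages decide nothing about the members.

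For E14 to E18, WT libraries alone, with fewer samples, called 3 members, with Nlgn2 at 0.06 and Nlgn3 at 0.18, and Nlgn2 at −0.18 from P7 to P35. From E18 to P7, Nlgn2 was called at 0.14 with DESeq2, with its size factors and with a minimum of 10 CPM, and at 0.11 without the libraries with Xist counts. Leaving out a library gave 0.08 to 0.12, with a call without WT replicate 2 at P7. From P35 to P70, 1 member (Nlgn3) was called with DESeq2 (−0.14), library size only (−0.15), a minimum of 10 CPM (−0.14) and without the libraries with Xist counts (−0.14). Nlgn1, never called in the last 2 steps, turned to 0.01 from P7 to P35 with a minimum of 10 CPM and in WT libraries alone, and to 0.04 from P35 to P70 in WT libraries alone, and leaving out a library gave −0.03 to 0.00 and −0.04 to 0.01. All other calls over the age steps held under each alternative. No scaling moved the median of all genes by more than 0.1 on the log2 scale. With counts not divided by length, of the member ratios and shares, Nlgn2 percent of neuroligins at E14 was 74.5 and at E18 70.7. Of the member ratios and shares, Nlgn2 percent of neuroligins at P7 was 66.2 and at P35 65. Of the member ratios and shares, Nlgn2 percent of neuroligins at P70 was 64.9. The ratio of Nrxn2 to Nrxn3 without that division was 6.26 at P7, 2.53 at P35 and 2.5 at P70, because the genes differ in length. For the other changes the cause was not tested.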
